A study of Mus musculus with 6 samples.

Results

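The mouse mitochondrial genome encodes 37 RNAs, of which 13 are mRNAs, 2 are rRNAs and 22 are tRNAs. These genes were taken from the deposited expression table as all rows whose name starts with mt-, which gave 37 of 54146 genes. The cells were D2A1, a line of mouse mammary tumor cells grown in 3D Matrigel culture with 10% FBS. Of the libraries, 3 were made from cells given 50 nM recombinant GST (rGST, the control protein) and 3 from cells given 50 nM recombinant SLURP1 (rSLURP1), a secreted protein of the Ly6/uPAR family. All 6 carry the same genotype label (control), were harvested on day 5 by the methods, and were sequenced from polyA RNA, so that the only labeled difference is the protein added. The labels do not say whether the 3 libraries of a treatment came from separate cultures, so p-values measure the spread between these libraries, which may be technical. The libraries have no counterpart grown without an added protein, and 1 cell line was used.

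The table gives TPM, a level per unit of transcript length scaled to the same total in every library, and read depth is unknown because TPM keeps none. Between 12390 and 12449 genes reached a TPM of 1 with rGST and between 11906 and 11981 did so with rSLURP1. The fit in limma used log2(TPM + 1) of the 12301 genes that reached 1 TPM in 3 or more libraries, and the median log2 fold change of these genes was −0.33. With each library divided by the median ratio of its genes (median-ratio scaling), that median was −0.0012, so direction on the deposited scale and direction relative to the typical gene are both given. Of the epithelial markers, Krt18 lay at 191 to 199 TPM in all 6 libraries, Krt8 at 0.51 to 1.66 TPM, and Krt5, Krt14 and Epcam were listed at 0. The summed TPM of 5 fibroblast markers was 894 to 1031 with rGST and 57.3 to 64.1 with rSLURP1, 4 of the 5 being tested and lower. Dcn went from 520 to 636 TPM with rGST to 5.15 to 5.88 TPM with rSLURP1. Lum went from 165 to 195 TPM to 0.58 to 1.09 TPM, and Pdgfra from 191 to 205 TPM to 51.1 to 57.6 TPM. Col1a1 was at most 9.66 TPM and Pdpn at most 0.24 TPM. The part of this difference in the results below was not tested. The summed TPM of 5 leukocyte markers was 3.58 to 4.20 with rGST and 8.02 to 10.6 with rSLURP1, and that of 3 adipocyte markers 4.76 to 8.28 and 37.1 to 40.7, but 1 gene carried each sum (Cd68 at 3.57 to 4.07 and 7.75 to 10.6 TPM, and Fabp4 at 4.53 to 7.53 and 35.8 to 39.0 TPM), with the defining markers Ptprc, Adgre1 and Csf1r at most 0.05 TPM and Adipoq at most 0.15 TPM. The endothelial and erythroid markers summed to at most 0.31 TPM. D2A1 is the only cell named for these cultures, and whether the fibroblast markers came from these cells or from others was not tested. In these bulk samples, fewer cells with a given RNA and less of it per cell cannot be told apart.

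Mitochondrial DNA is a small circle whose heavy and light strands are each transcribed into long RNAs that carry many genes. tRNAs lie between most of the rRNAs and mRNAs, and their excision by RNase P and RNase Z frees the neighboring RNAs, so the genes have little or no spacer and their levels after processing rest largely on stability. The mRNAs encode core subunits of complexes I, III and IV and of ATP synthase, the rRNAs build the mitochondrial ribosome, and the tRNAs serve it. The nucleus encodes every other protein of these complexes and of the machinery that copies, transcribes and translates mitochondrial DNA. Most mitochondrial mRNAs carry short poly(A) tails, whereas rRNAs have few or no added adenosines and tRNAs end in CCA, which bears on how each class is captured by oligo(dT).

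Stretches from GENCODE M21 transcripts (GRCm38) show the compact layout. The junction at chrM:2646-2780 is shown first, with the tRNA mt-Tl1 in capitals. mt-Tl1 separates the end of the rRNA mt-Rnr2 from the start of mt-Nd1, with no spacer base on either side. As deposited, these were the rRNA and the mRNA with the smallest p-values among those that rose.
mt-Rnr2, mt-Tl1 and mt-Nd1: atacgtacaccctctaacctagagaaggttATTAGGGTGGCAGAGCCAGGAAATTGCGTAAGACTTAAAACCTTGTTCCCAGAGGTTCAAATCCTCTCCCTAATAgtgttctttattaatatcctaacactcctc
The end of mt-Atp8 (chrM:7910-7969) and the start of mt-Atp6 (chrM:7927-7986) share 43 bases of the same strand, in capitals, and are shown because reads within these bases fit either gene.
mt-Atp8: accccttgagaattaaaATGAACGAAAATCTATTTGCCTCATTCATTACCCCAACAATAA
mt-Atp6: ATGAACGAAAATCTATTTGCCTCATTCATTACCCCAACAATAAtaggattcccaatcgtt
The last bases of mt-Nd5 (chrM:13526-13565, plus strand) and of mt-Nd6 (chrM:13552-13591, minus strand) overlap by 14 bases on opposite strands, again in capitals, and whether counting used strand is not given in the sources used here.
mt-Nd5: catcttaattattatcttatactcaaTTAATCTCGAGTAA
mt-Nd6: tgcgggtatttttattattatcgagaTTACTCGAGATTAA

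The mRNA class held more of the TPM total with rSLURP1 than with rGST in these libraries. The 13 mRNAs made up 12.1%, 11.7% and 10.9% of the total with rGST (11.6% ± 0.597, SD, n = 3) and 12.9%, 12.3% and 14.1% with rSLURP1 (13.1% ± 0.918, SD, n = 3), a difference of 1.53 percentage points and a 1.13-fold higher share. The 2 rRNAs made up 0.0870%, 0.102% and 0.0959% with rGST (0.0950% ± 0.00758) and 0.220%, 0.159% and 0.177% with rSLURP1 (0.185% ± 0.0311), a 1.95-fold higher share. Neither class overlapped between treatments, and the exact permutation test gave p = 0.1 (two-sided) for each, the smallest value that 3 libraries against 3 allow. The 22 tRNAs were listed at 0 in all 6 libraries. For the 37 genes together the share was 11.7% ± 0.594 with rGST and 13.3% ± 0.922 with rSLURP1. When each TPM was multiplied by transcript length, a proxy for the share of reads, the mRNAs held 3.95% ± 0.211 and 4.95% ± 0.410, a 1.25-fold difference, and the rRNAs differed 2.27-fold.

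**Figure D1:**
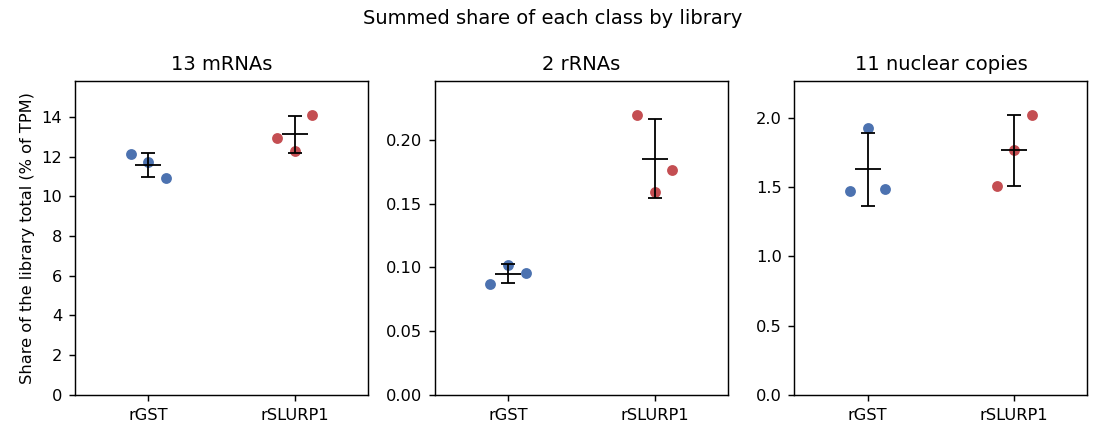
Share of each library's summed TPM (percent, linear axes from 0) held by the 13 mRNAs, the 2 rRNAs and the nuclear copies of mitochondrial genes, with 1 point per library and the mean ± SD of 3 libraries as bars. The mRNA and rRNA shares did not overlap between treatments, whereas the shares of the nuclear copies, at 1.47% to 1.93% with rGST and 1.51% to 2.02% with rSLURP1, did.

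As deposited, limma at an adjusted p of 0.05 called 6 of the 13 mRNAs higher and 1 lower with rSLURP1, and 6 did not pass. Both rRNAs were higher. Over all 12301 genes tested, 8.66% were higher and 58.5% lower, and the median log2 fold change of the 13 mRNAs was 0.24 beside the −0.33 of all genes. Among the 438 other genes whose mean TPM was at least that of the lowest mitochondrial mRNA, 176 were higher and 171 lower, with a median of −0.03. The direction depended on the scaling. Under quantile normalization, which fixes the values at the top ranks, mt-Rnr1, mt-Rnr2, mt-Nd1 and mt-Nd6 were higher and mt-Nd5 lower. There mt-Atp6, mt-Co1, mt-Co2, mt-Co3, mt-Cytb, mt-Nd3, mt-Nd4 and mt-Nd4l stood below 0 without passing, and mt-Atp8 stood at 0. With median-ratio scaling, 11 of the 13 mRNAs and both rRNAs were higher and the other two (mt-Nd5 and mt-Nd4l) did not pass, beside 26% higher and 25.2% lower of all genes, and the median of the 13 mRNAs was 0.60. Of the 15 genes tested, 8 had rSLURP1 libraries all above the rGST libraries and 1 had them all below, beside 9.75% and 61.7% of all genes.

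**Figure D2:**
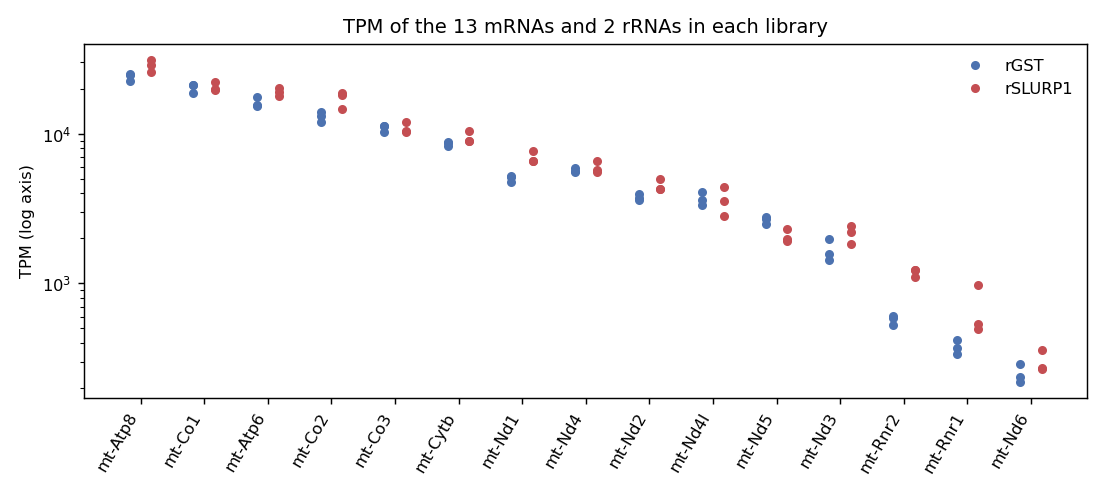
TPM of the 13 mRNAs and 2 rRNAs in each of the 6 libraries on a log axis, ordered by mean TPM, with 1 point per library. Levels span from 221 TPM (mt-Nd6) to 31063 TPM (mt-Atp8), and the treatments separate upward most clearly at mt-Rnr2 and mt-Nd1 and downward at mt-Nd5.

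The rRNAs had the highest log2 fold changes of the 15 genes tested with all libraries, a rank that mt-Rnr1 lost to mt-Nd1 (0.46 against 0.50) without the first rSLURP1 library. mt-Rnr2, the large ribosomal subunit's 16S rRNA (chrM:1094-2675), was at 530.3, 602 and 589 TPM with rGST and 1229, 1097 and 1226 TPM with rSLURP1. All 3 rSLURP1 libraries lay above all 3 rGST libraries, at 574 ± 38.1 against 1184 ± 75.1 TPM (SD, n = 3). limma gave a log2 fold change of 1.04 (SE 0.0639, adjusted p = 1.03e-05). mt-Rnr1, the small subunit's 12S rRNA (chrM:70-1024), was at 339.7, 419 and 369 TPM with rGST and 969, 496 and 539 TPM with rSLURP1. The groups did not overlap, but the first rSLURP1 library stood well above the other two, and limma gave a log2 fold change of 0.77 (SE 0.234, adjusted p = 0.0210). Without that library the log2 fold change of mt-Rnr1 was 0.46 (limma adjusted p = 0.00472), while without the first or last rGST library it was 0.69 and 0.76 and did not pass (limma adjusted p = 0.0628 and 0.0520). In the same library the nuclear noncoding RNA Malat1 was at 319 TPM, against 104 and 100.4 TPM in the other rSLURP1 libraries and 130.3 to 132.5 TPM with rGST, whereas Neat1, another RNA retained in the nucleus, was at 257 TPM there, below the 390 and 294 TPM of the others. Neat1 rose from 192 ± 3.67 to 314 ± 68.4 TPM without overlap (log2 fold change 0.69, limma adjusted p = 0.00268), and the part of these differences in the rRNA result was not tested. The ratio of mt-Rnr2 to mt-Rnr1 was 1.56, 1.44 and 1.60 with rGST and 1.27, 2.21 and 2.28 with rSLURP1, so the groups overlapped (exact permutation p = 0.4). Relative to the mRNA sum of the same library, the rRNAs stood at 0.823% ± 0.0902 with rGST and 1.42% ± 0.247 with rSLURP1, without overlap.

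Of the 7 mRNAs for complex I, the NADH dehydrogenase that feeds electrons into the chain, 3 were higher, 1 was lower and 3 did not pass. mt-Nd1 (chrM:2751-3707), a membrane subunit at the junction with the quinone-reducing arm, was at 5109, 5199 and 4790.4 TPM with rGST and 6568, 6598 and 7624 TPM with rSLURP1. The groups were separate, at 5033 ± 214.5 and 6929.7 ± 601 TPM, with a log2 fold change of 0.46 in limma (SE 0.0659, adjusted p = 6.00e-04). mt-Nd2, a membrane subunit with a proton channel, was at 3943, 3705 and 3616 TPM with rGST and 4251, 4248 and 4999 TPM with rSLURP1, again with no overlap and a log2 fold change of 0.26 (limma adjusted p = 0.0131). The mt-Nd2 call was lost in limma with no filter on low values (adjusted p = 0.0821) and with quantile normalization, where it stood at 0.0014 (adjusted p = 0.990). mt-Nd3 was at 1969.8, 1442 and 1571 TPM with rGST and 2433, 2209.6 and 1834 TPM with rSLURP1, and its groups overlapped although limma called it (log2 fold change 0.38, SE 0.135, adjusted p = 0.0375). That call was lost in limma without the second or the third rGST library (adjusted p = 0.114 and 0.0975) or without the first or second rSLURP1 library (adjusted p = 0.115 and 0.0980).

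mt-Nd5 (chrM:11742-13565), another membrane subunit with a proton channel and the longest mitochondrial mRNA at 1824 bases, went the other way. It was at 2769.9, 2701 and 2495 TPM with rGST and 1931, 1966 and 2300.3 TPM with rSLURP1. Every rSLURP1 library was below every rGST library, at 2066 ± 204 against 2656 ± 143 TPM, and limma gave a log2 fold change of −0.37 (SE 0.0736, adjusted p = 0.00320). This lies close to the median of all genes, and with median-ratio scaling mt-Nd5 stood at −0.01 (limma adjusted p = 0.922), so its decrease holds on the deposited scale and not relative to the typical gene. mt-Nd4, mt-Nd4l and mt-Nd6, the remaining membrane subunits, had log2 fold changes of 0.05, −0.05 and 0.26 (limma adjusted p = 0.482, 0.765 and 0.127), which were 0.41, 0.30 and 0.61 with median-ratio scaling. The only mRNA of the light strand, mt-Nd6, was the least abundant, at 249 ± 36.2 TPM with rGST and 298 ± 50.2 TPM with rSLURP1, with overlapping groups. Without the third rGST library mt-Nd6 passed in limma (log2 fold change 0.37, adjusted p = 0.0397), while without the second rSLURP1 library it stood at 0.12 (adjusted p = 0.367).

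The 3 mRNAs of cytochrome c oxidase (complex IV) did not move alike. mt-Co2, which carries the copper center that takes electrons from cytochrome c, was at 14029, 13136 and 11929.7 TPM with rGST and 18611, 14657 and 18100.0 TPM with rSLURP1. Its groups did not overlap, and the log2 fold change was 0.39 in limma (SE 0.0999, adjusted p = 0.00998). The call was lost in limma with no filter on low values (adjusted p = 0.131) and with quantile normalization, where the sign turned (−0.098, adjusted p = 0.345). mt-Co1, the catalytic subunit with the heme-copper center, was at 21031, 21301 and 18589 TPM with rGST and 19720.5, 19879.8 and 22248 TPM with rSLURP1, and mt-Co3, a structural core subunit, at 11298, 11187 and 10223 TPM with rGST and 10437, 10202 and 11913 TPM with rSLURP1. Both overlapped between treatments, with log2 fold changes of 0.02 and −0.01 on the deposited scale, where the sign of mt-Co3 turned in 4 of the 6 fits that left out a library and that of mt-Co1 in 2. With median-ratio scaling they stood at 0.38 and 0.35, and limma called both higher. Cytochrome b (mt-Cytb), the only complex III subunit encoded in mitochondria, was at 8795, 8709.5 and 8244 TPM with rGST and 9009, 8959.7 and 10380.2 TPM with rSLURP1. Its groups were just separate, but the log2 fold change of 0.14 did not pass in limma (adjusted p = 0.0944), while with median-ratio scaling it was 0.49 and passed.

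The ATP synthase mRNAs, for membrane subunits a (mt-Atp6) and 8 (mt-Atp8) of the proton-driven part, are carried on a shared transcript and both rose on the deposited scale. mt-Atp8 was the most abundant gene of the whole table, at 24744, 25121 and 22418 TPM with rGST and 28589, 25961 and 31063 TPM with rSLURP1. Its groups did not overlap (log2 fold change 0.24, SE 0.0756, limma adjusted p = 0.0230). mt-Atp6 was at 17586, 15252 and 15536 TPM with rGST and 19051, 17811 and 20246 TPM with rSLURP1, also without overlap and with a log2 fold change of 0.24 (SE 0.0704, limma adjusted p = 0.0177). The mt-Atp8 call was lost in limma without the third rGST, the first rSLURP1 or the third rSLURP1 library (adjusted p = 0.0715, 0.0511 and 0.0648). The mt-Atp6 call was lost in limma without the second rGST, the third rGST or the third rSLURP1 library (adjusted p = 0.0631, 0.0552 and 0.0564). With no filter on low values, limma called neither mt-Atp8 nor mt-Atp6 (adjusted p = 0.439 and 0.316). Neither passed with quantile normalization, where they stood at 0 and −0.079. The TPM ratio of mt-Atp8 to mt-Atp6 was 1.499 ± 0.129 with rGST and 1.497 ± 0.0384 with rSLURP1 (exact permutation p = 1). This ratio leaves out the nuclear copy of mt-Atp6 described below. With that copy added, mt-Atp6 was at 18932 ± 1177 TPM with rGST and 21401 ± 1471 TPM with rSLURP1, so the ratio depends on an uncertain split and does not show that the pair kept its proportion.

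Ranked by mean TPM over the 6 libraries, mt-Atp8, mt-Co1, mt-Atp6, mt-Co2 and mt-Co3 were the 5 highest of all 54146 genes and mt-Cytb was number 7, so 6 of the 10 highest genes were mitochondrial mRNAs. mt-Nd1 and mt-Nd4 were numbers 13 and 14, with rGST groups of 4790.4 to 5199 and 5539.9 to 5934 TPM that did not overlap, whereas with rSLURP1 their ranges of 6568 to 7624 and 5569.6 to 6558 TPM did not overlap in the reverse order. mt-Nd2 and mt-Nd4l followed as numbers 22 and 30, mt-Nd5 and mt-Nd3 as 64 and 81. These ranks leave out what was listed at the nuclear copies described below. With the copies added, mt-Nd4l (6524 and 7239.7 TPM) lay above mt-Nd1 and mt-Nd4 in the group means, and mt-Nd3 (2851 and 3998 TPM) above mt-Nd5. The rSLURP1 mean of mt-Co2 (22258 TPM) then also lay above those of mt-Co1 (21879 TPM) and mt-Atp6 (21401 TPM), with overlapping ranges. The rRNAs came only at 156 (mt-Rnr2) and 237 (mt-Rnr1), and mt-Nd6 at 453. Among neighbors in this order, the ranges of mt-Nd2 and mt-Nd4l overlapped with both treatments, and those of mt-Co1 and mt-Atp6, mt-Atp6 and mt-Co2, mt-Co3 and mt-Cytb, and mt-Nd5 and mt-Nd3 overlapped with rSLURP1. Ribosomal RNA is the most abundant RNA of mitochondria, and these polyA libraries do not measure its amount relative to mRNA.

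To follow the genes against each other rather than against nuclear RNA, each library was rescaled to the same sum of the 13 mRNAs. On this scale limma called mt-Rnr1 (0.59, adjusted p = 0.0306), mt-Rnr2 (0.87, adjusted p = 3.32e-05) and mt-Nd1 (0.28, adjusted p = 0.00997) higher and mt-Nd5 lower (−0.54, adjusted p = 1.88e-04). The other 11 genes did not pass, beside 4.67% of all genes higher and 67.8% lower on the same scale, where nuclear genes carry the shift of the mRNA sum. mt-Rnr1 was lost here in limma without the first rGST or the first rSLURP1 library (log2 fold change 0.48 and 0.28, adjusted p = 0.0722 and 0.0738). It was also lost in limma with no filter on low values (adjusted p = 0.167) and with eBayes without trend (adjusted p = 0.0557). mt-Nd1 was lost in limma with no filter (adjusted p = 0.296) and with libraries blocked by replicate number (adjusted p = 0.0696). As a percentage of the mRNA sum, mt-Nd5 fell from 2.29% ± 0.0138 to 1.57% ± 0.0714 and mt-Nd1 rose from 4.35% ± 0.116 to 5.28% ± 0.176. mt-Co1 (17.5% to 15.7%), mt-Co3 (9.42% to 8.27%) and mt-Nd4 (4.94% to 4.54%) had lower percentages and mt-Co2 (11.2% to 13.05%) a higher one, each without overlap and each at the exact permutation p of 0.1. By complex, the ATP synthase pair held 34.7% ± 0.229 with rGST and 36.3% ± 0.638 with rSLURP1 without overlap. Complex I, at 19.7% ± 0.726 and 19.5% ± 1.17, and complex IV, at 38.2% ± 0.867 and 37.05% ± 0.675, overlapped. These percentages leave out the nuclear copies described below. With the copies added, the second rSLURP1 library was about level with the second rGST library for the ATP synthase pair. The separation of that pair thus rests on an uncertain split.

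Ratios to mt-Nd5 were chosen after their values were seen. The TPM ratio of mt-Nd1 to mt-Nd5 was 1.84, 1.92 and 1.92 with rGST and 3.401, 3.36 and 3.31 with rSLURP1. This is 1.90 ± 0.0450 against 3.36 ± 0.0432 (SD, n = 3), with the groups far apart relative to their spread. For mt-Nd4 to mt-Nd5, which lie next to each other apart from a cluster of tRNAs, the ratio was 2.14, 2.10 and 2.22 with rGST and 2.88, 2.91 and 2.85 with rSLURP1, also without overlap. That of mt-Nd6 to mt-Nd5 varied more, at 8.56%, 8.18% and 11.62% with rGST and 14.04%, 18.1% and 11.64% with rSLURP1. Because the members of each ratio were picked for their difference, these are given without a test.

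**Figure D3:**
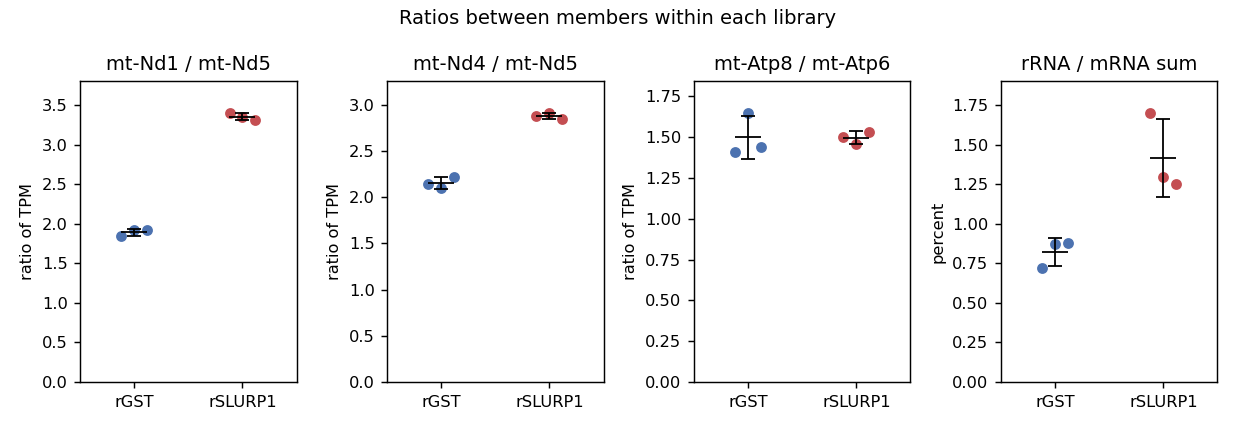
Ratios between mitochondrial genes within each library: mt-Nd1 to mt-Nd5, mt-Nd4 to mt-Nd5 and mt-Atp8 to mt-Atp6 as ratios of TPM, and the rRNA sum as a percentage of the mRNA sum, with 1 point per library, bars for mean ± SD of 3 libraries and linear axes from 0. The first pair and the rRNA share are separate between treatments, while mt-Atp8 to mt-Atp6 is 1.499 with rGST and 1.497 with rSLURP1. Nuclear copies are left out of the ratios, among them that of mt-Atp6.

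Along the genome, the rRNAs and mt-Nd1, which come first, had the highest log2 fold changes as deposited. With the nuclear copies described below added, mt-Nd3, farther along, stood at 0.48, above mt-Nd1 at 0.46. Over the 12 mRNAs other than mt-Nd6, all read from the same strand, log2 fold change against start position had a Pearson r of −0.53 and a Spearman rho of −0.61, and against length −0.54 and −0.34. With both rRNAs added (n = 14), the values were −0.76 and −0.75 for position and −0.06 and −0.08 for length. With the nuclear copies described below added, rho over the 12 mRNAs was −0.50 for position and −0.57 for length. These are descriptions over genes that share libraries and transcripts, and genes are not independent replicates.

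**Figure D4:**
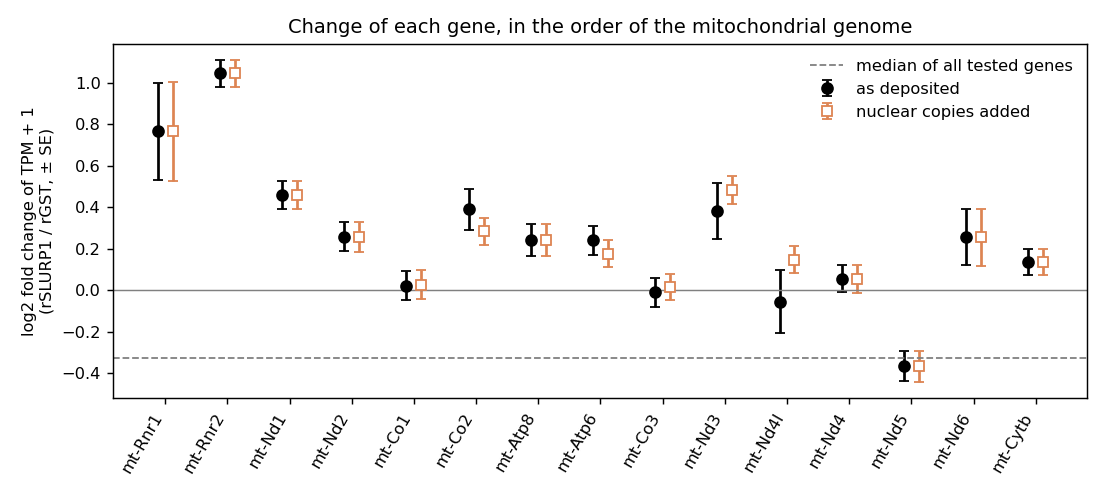
Log2 fold change on log2(TPM + 1), rSLURP1 against rGST, with its limma standard error as bars, for the 15 measured mitochondrial genes in genome order, as deposited (filled circles) and with nuclear copies added (open squares), and a dashed line at the median of all tested genes, −0.33. As deposited, the rRNAs and mt-Nd1, which come first, stand at 0.77, 1.04 and 0.46, and mt-Nd5, toward the end, at −0.37. With copies added, mt-Nd3 stands at 0.48, above mt-Nd1.

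The tRNAs, of 59 to 75 bases, could not be measured in this table. Each of the 22, 14 on the plus and 8 on the minus strand, was listed at 0 in each library. The shortest, mt-Ts2 (serine, chrM:11613-11671), is printed to show the size of an RNA that falls below what the libraries report.
mt-Ts2: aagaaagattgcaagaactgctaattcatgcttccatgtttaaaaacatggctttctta
The same held for every other annotated gene of that size. Of 1003 other genes whose longest transcript has at most 75 bases, 0 had a TPM above 0 in any library, beside 1.62% of 1417 genes above 75 and up to 100 bases, 8.08% of 3476 genes above 100 and up to 150 bases, 12.6% of 841 genes above 150 and up to 200 bases and 15.07% of 3411 genes above 200 and up to 350 bases. No statement on tRNA levels is therefore possible, and mt-Tl1 between mt-Rnr2 and mt-Nd1 is among them.

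Nuclear copies of mitochondrial DNA share sequence with several of these genes, and part of their reads may have been assigned elsewhere. Matching the transcripts at 95% identity or more over at least 100 bases found 11 copies of 9 members, 9 of which reached a TPM of 1 in at least 3 libraries. A cluster of 7 lies on the minus strand at chr1:24611535-24616197, listed as RP23-8J15.1 to RP23-8J15.7 and annotated as unprocessed pseudogenes, and repeats mt-Co1, mt-Co2, mt-Atp6, mt-Co3, mt-Nd3, mt-Nd4l and mt-Nd4 in their mitochondrial order. In 5 of the 7 the aligned bases are identical to the member's. The other two, at mt-Nd3 (chrM:9459-9518) and mt-Co1 (chrM:6390-6449), differ from the member by 1 base each, T3C and A1066T counted from 1 at the member's first base (member base first), and both stretches are printed with that base in capitals to show how little separates them.
mt-Nd3: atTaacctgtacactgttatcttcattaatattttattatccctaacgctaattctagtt
RP23-8J15.5: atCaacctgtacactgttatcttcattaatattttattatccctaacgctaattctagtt
mt-Co1: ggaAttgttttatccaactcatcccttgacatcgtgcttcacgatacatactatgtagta
RP23-8J15.1: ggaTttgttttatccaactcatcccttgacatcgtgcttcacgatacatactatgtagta
The copies lie at chr1:24613060-24613119 and chr1:24616129-24616188, printed on the minus strand. How RSEM divided reads from identical stretches cannot be recovered from TPM, so the split between each pair is uncertain.

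The share of each pair held by the copy, with each TPM weighted by transcript length, differed widely between members. For mt-Nd3 it ran from 33.1% to 58.6% over the 6 libraries and for mt-Nd4l from 35.8% to 58.9%, so that in some libraries the copy was listed above the mitochondrial gene. mt-Co2 (14.7% to 31.8%) and mt-Atp6 (8.17% to 22.8%) came next. These weighted shares were lower for mt-Co1 (5.14% to 6.32%), mt-Co3 (3.399% to 7.35%) and mt-Nd4 (at most 0.13%). The mt-Co1 copy is shorter than its member, at 492 against 1545 bases. In TPM it was at 3643 with rGST and 3952 with rSLURP1, beside 20307 and 20616 for mt-Co1. The copies together held 1.63% ± 0.262 of the total with rGST and 1.77% ± 0.257 with rSLURP1, with overlap (exact permutation p = 0.5).

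**Figure D5:**
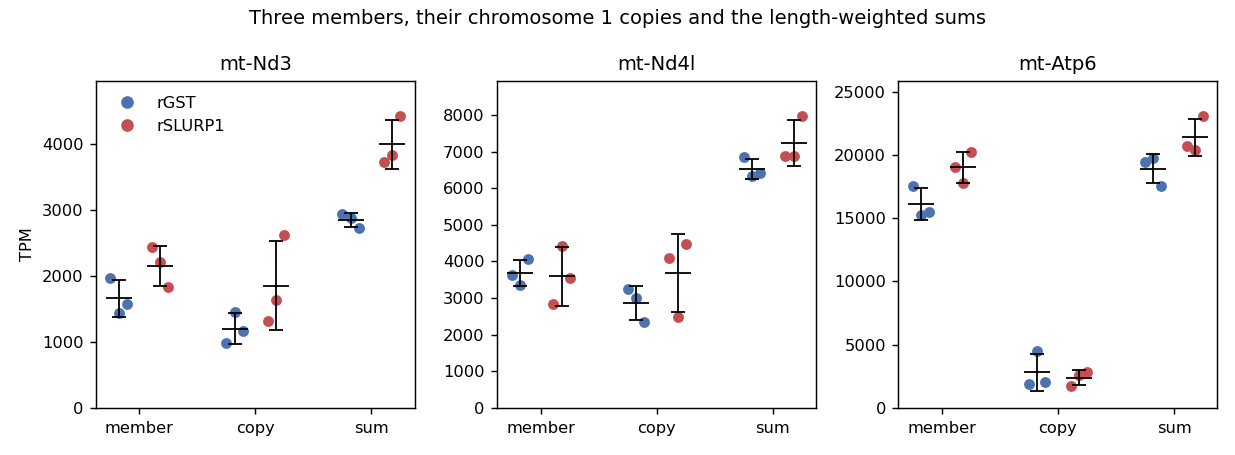
TPM per library of mt-Nd3, mt-Nd4l and mt-Atp6 (member), of the chromosome 1 copy and of the length-weighted sum, with 1 point per library, bars for mean ± SD of 3 libraries and linear axes from 0. With rSLURP1, mt-Nd4l alone ran from 2827 to 4420 TPM, and its copy from 2486 to 4478 TPM, and the sum had a smaller coefficient of variation than the member.

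Adding the copies to their members, weighted by length, narrowed the spread between libraries for mt-Nd3, mt-Nd4l and mt-Co2. The coefficient of variation of mt-Nd3 went from 16.6% to 3.90% with rGST and from 14.04% to 9.38% with rSLURP1. For mt-Nd4l it went from 9.86% to 4.24% with rGST and from 22.2% to 8.71% with rSLURP1. For mt-Co2 it went from 8.08% to 6.12% with rGST and from 12.6% to 6.50% with rSLURP1. That of mt-Atp6 went from 7.90% to 6.22% with rGST but from 6.40% to 6.87% with rSLURP1. mt-Nd3 with its copy was at 2851 ± 111 and 3998 ± 375 TPM, its groups no longer overlapped, and limma gave a log2 fold change of 0.48 (SE 0.0684, adjusted p = 6.93e-04). mt-Nd4l turned from −0.05 to 0.15 with separate groups but did not pass in limma (adjusted p = 0.0854). mt-Co2 went to 0.28 (limma adjusted p = 0.00653), mt-Atp6 to 0.18 (limma adjusted p = 0.0490) and mt-Co3 from −0.01 to 0.02. Over the members, 8 were again higher and 1 lower, beside 8.63% and 58.5% of all genes in that fit. mt-Nd1, mt-Rnr1 and mt-Rnr2 matched no copy at this identity, and the copy of mt-Nd5 reached at most 0.04 TPM, so the calls on these 4 genes do not depend on the copies.

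Nuclear genes that serve mitochondrial DNA and its products were counted from lists chosen with results of these data known. Over 11 lists with 192 tested genes, 16 were higher and 107 lower as deposited, near the 8.66% and 58.5% of all genes, with a median log2 fold change of −0.22 beside −0.33. With median-ratio scaling the direction turned, to 83 higher and 17 lower, beside 26% and 25.2% of all genes, with a median of 0.13. The counts of single lists below are to be read against the same shares. Of 18 genes that replicate or transcribe mitochondrial DNA, 11 were lower and 7 did not pass (median −0.40), near the 58.5% of all genes, and with median-ratio scaling 1 was higher and 1 lower. Ssbp1, the single-stranded DNA-binding protein of the replication fork, went from 94.1 ± 2.77 to 72.01 ± 3.10 TPM (log2 fold change −0.38, limma adjusted p = 3.04e-04). Tfam, which packages mitochondrial DNA and starts its transcription, stood at −0.61 (limma adjusted p = 0.00343), and Polrmt, the mitochondrial RNA polymerase, at −0.14 (limma adjusted p = 0.308), both named after their values were seen. With median-ratio scaling, these 3 stood at −0.03, −0.26 and 0.20 and did not pass in limma (adjusted p = 0.610, 0.126 and 0.213).

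Of 32 genes for processing and stability of mitochondrial RNA, 4 were higher, 17 lower and 11 did not pass (median −0.29), beside 8.66% and 58.5% of all genes, and with median-ratio scaling 7 were higher and 4 lower. The 4 were Rexo2, an oligoribonuclease that clears short RNA (log2 fold change 0.30, limma adjusted p = 0.00387), Ddx28, an RNA helicase of ribosome assembly (0.39, limma adjusted p = 0.00407), and Trmt10c and Hsd17b10, subunits of the RNase P that cuts tRNA 5′ ends (0.17 and 0.11, limma adjusted p = 0.0451 and 0.0269). Rpusd4, a pseudouridine synthase needed for the 16S rRNA, had the smallest p among the decreases as deposited (29.6 ± 1.08 to 18.8 ± 0.868 TPM, log2 fold change −0.63, limma adjusted p = 8.38e-05), and Dhx30, an RNA helicase, fell further (66.9 ± 5.13 to 36.1 ± 3.69 TPM, log2 fold change −0.87, limma adjusted p = 9.09e-05) and had the smaller p with median-ratio scaling. Elac2, the RNase Z that cuts tRNA 3′ ends, stood at −0.34, and Lrpprc, which stabilizes the mRNAs, at −0.01 (limma adjusted p = 0.897). With median-ratio scaling Elac2 stood at −0.0016 (limma adjusted p = 0.984), while Lrpprc was higher at 0.33 (limma adjusted p = 0.00268). Of 16 tRNA modification genes, 1 was higher (Yrdc, 0.31) and 9 lower (Gtpbp3 with the smallest p, −0.52). Of 17 translation factors 10 were lower, Oxa1l with the smallest p at −0.39, though it stood at −0.041 with median-ratio scaling (limma adjusted p = 0.520). Of 8 regulators of mitochondrial biogenesis 1 was higher (the nuclear receptor Esrra, 0.34) and 5 lower, and of 25 import, chaperone and matrix genes 4 were higher (the chaperonin Hspe1 with the smallest p, 0.32) and 11 lower. With median-ratio scaling, 4 tRNA modification genes were higher and 2 lower, 5 translation factors higher and 1 lower, 3 biogenesis regulators higher and 2 lower, and 14 import, chaperone and matrix genes higher and 3 lower, beside 26% and 25.2% of all genes. On that scale the medians of these 6 lists, in the order described, were −0.06, 0.05, 0.09, −0.03, −0.05 and 0.20, beside the −0.0012 of all genes.

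Nuclear-encoded subunits of the same complexes were lower about as often as all genes as deposited, and their direction turned with median-ratio scaling. As deposited, 23 of 36 complex I, 4 of 9 complex III, 6 of 11 complex IV and 8 of 16 ATP synthase subunits were lower, beside 58.5% of all genes, with medians of −0.21, −0.15, −0.14 and −0.13, and 6 in these 4 lists were higher, among them Uqcrq (0.65) and Atp5g1 (0.28). With median-ratio scaling, 21, 6, 9 and 12 of them were higher, beside 26% of all genes. Within each library, the mean TPM of the mitochondrial mRNAs of complex I was 14.8 ± 0.502 times that of its nuclear subunits with rGST and 18.8 ± 1.04 times with rSLURP1, without overlap. For ATP synthase this ratio was 43.8 ± 2.35 and 56.0 ± 4.78, also without overlap, and the exact permutation p was 0.1 for both. For complex III the ratio was 34.9 ± 2.08 with rGST and 41.0 ± 3.88 with rSLURP1 without overlap (exact permutation p = 0.1). For complex IV the ratio was 30.1 with rGST and 34.8 with rSLURP1 with overlapping groups (exact permutation p = 0.2). These ratios leave out the nuclear copies, among them those of mt-Co1, mt-Co2 and mt-Co3. With these copies added, the complex IV ratio of every rSLURP1 library lay above that of every rGST library. The overlap at complex IV thus comes from leaving the copies out. Of 4 complex II subunits, all encoded in the nucleus, 3 were lower as deposited (median −0.30), beside 58.5% and a median of −0.33 for all genes. With median-ratio scaling 1 was higher and 1 lower (median 0.05).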

How the data were processed

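RNAseq of D2A1 cells in 3D Matrigel culture was analyzed in 6 libraries, 3 per protein, grouped by the sample labels. From reads trimmed with Cutadapt and aligned to mm10 with STAR 2.5.2b, the authors estimated expression with RSEM on GENCODE M12 and deposited TPM with 1 column per library. The submitters' processing notes list Cutadapt 1.18 and RSEM 1.3.3, and the methods give other versions. The methods describe Smart-seq2 whereas the labels name a TruSeq mRNA kit. TPM holds no depth, so no counting error was computed.

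The members and lists were chosen with earlier results of these data known. Genes were matched to GENCODE M21 (GRCm38) for coordinates, length and sequence, without version, for 54079 of 54146 identifiers. log2(TPM + 1) of the 12301 genes that reached 1 TPM in 3 or more libraries was tested with limma 3.58.1 (R 4.3.3, eBayes with trend), with Benjamini-Hochberg adjustment and a threshold of 0.05. On this log scale, changes of low genes are understated. Shares and ratios were compared by two-sided exact permutation. Copies were found with BLAST 2.17.0 at 95% identity over 100 bases, and their addition to the members was chosen after seeing the data. Tables and plots used Python 3.11.15, pandas 2.3.3 and matplotlib 3.10.9. The fit was tested on simulated data.

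All mRNAs and rRNAs were named, and of each nuclear list the called gene with the smallest p in each direction and the gene of highest mean TPM, not all of which are reported here. Tfam, Polrmt, Ddx28, Trmt10c, Elac2, Lrpprc, Dhx30, Malat1 and the marker genes outside that rule were named after their values were seen. Alternatives were median-ratio, quantile and nuclear-total scaling, a pseudocount of 0.1, other filters, a replicate block, leaving out each library, eBayes without trend, other denominators of the shares, and a copy identity of 98%.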

Additional observations from a re-analysis of the deposited data

How the results depend on the processing

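Of the 15 tested genes, 9 passed as deposited, and between 6 and 8 passed with 1 library left out. The number fell to 3 (2 higher, 1 lower) with no filter on low values and to 5 (4 higher, 1 lower) with quantile normalization, and was 13 (all higher) with median-ratio scaling. Relative to the mRNA sum, 4 genes passed, 2 with no filter and 3 to 6 with a library left out. mt-Rnr2 and mt-Nd1 were higher in limma under every alternative run on the deposited scale, whereas relative to the mRNA sum mt-Nd1 did not pass with no filter or with the replicate block. Some signs turned. mt-Co3 stood at 0.35 with median-ratio scaling, 0.018 with TPM rescaled to the nuclear total and 0.016 with copies added, and mt-Nd4l at 0.30 with median-ratio scaling and 0.15 with copies added. Quantile normalization gave −0.079 for mt-Atp6, −0.072 for mt-Co1, −0.098 for mt-Co2, −0.20 for mt-Cytb, −0.015 for mt-Nd3 and −0.17 for mt-Nd4, and it fixes the highest values by construction. Scaled to the median ratio of the mRNAs, mt-Cytb stood at 0.0024. With 1 library left out, log2 fold changes ran from −0.078 to 0.034 for mt-Co3, −0.040 to 0.058 for mt-Co1, −0.22 to 0.11 for mt-Nd4l, −0.017 to 0.10 for mt-Nd4 and, relative to the mRNA sum, −0.10 to 0.23 for mt-Nd6. For the other changes the cause was not tested. Every alternative denominator kept the mRNA and rRNA shares higher with rSLURP1, and leaving out a library gave differences of 1.03 to 1.94 percentage points for the mRNAs and 0.0729 to 0.103 for the rRNAs. Libraries with the same replicate number did not deviate together (correlations −0.061 to −0.034), and no library correlated best with its own number. With the replicate block, 9 genes passed as deposited, 3 relative to the mRNA sum (mt-Nd1 at a limma adjusted p of 0.0696) and 122 nuclear genes of the 11 lists. Over those lists, 123 passed as deposited, 110 to 121 with a library left out, and 100 (83 higher, 17 lower) with median-ratio scaling. Depth is unknown, so low values carry no counting error.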
